A study of Mus musculus with 8 samples.

Results

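The genotype comparison described here was made on the oligodendrocytes of the cortex libraries alone, 4443 of the 12581 oligodendrocytes sequenced (35.3%). All cells of the 4 cortex libraries were taken. They came from 2 wild-type mice (WT, mouse 1 with 1342 cells and mouse 4 with 1123 cells) and 2 knockout mice (KO, mouse 3 with 1074 cells and mouse 6 with 904 cells). The KO animals were FIREΔ/Δ mice, in which an intronic enhancer of Csf1r is deleted in every cell of the body and microglia do not develop, while other brain macrophages remain. All mice were female. The pair aged 1 month and 18 days (mice 1 and 3) made up batch 4 of the cell table, and the pair aged 1 month and 16 days (mice 4 and 6) batch 6; the sources used here do not say which step a batch number marks. The methods of the study call the latter batch poorer in quality than the rest. The tissue called cortex was the left hemisphere once the olfactory bulb, cerebellum and hippocampus had been taken away, so it was not limited to cortical grey matter. The 8138 remaining cells were hippocampal oligodendrocytes of the same 4 mice. The mouse was the replicate, a mean over the cells of a library was its value, and KO and WT libraries were paired within a batch.

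Oligodendrocytes are the cells that wrap axons in myelin in the central nervous system. They make myelin membrane from large amounts of cholesterol, very long chain fatty acids and galactolipids, and they store iron and secrete transferrin. Microglia are the resident macrophages of this tissue and depend on signalling through Csf1r, whose ligand Csf1 is made in part by oligodendrocytes.

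In this droplet method each RNA molecule is tagged with a unique molecular identifier (UMI), and the levels below are library means of log2(UMIs over the cell's size factor, plus 1). Median depth was 12332.5 UMIs per cell in WT mouse 1, 11048 in WT mouse 4, 13725.5 in KO mouse 3 and 13250.5 in KO mouse 6, so KO cells were deeper in both batches. Median mitochondrial shares were 5.46% and 5.36% in batch 4 and 6.29% and 6.23% in batch 6 (WT then KO). The cortex libraries shared 3 cell barcodes. Of the 18 oligodendrocyte markers, all were tested, and their UMIs made up 883 to 1005 of every 10000. The authors' cluster Oligo1 held 147 cells of KO mouse 3 (13.7%), 98 cells of KO mouse 6 (10.8%) and no cell of either WT library. Cluster Oligo3 held 73.8% and 73.5% of WT cells (mice 1 and 4) and 56.2% and 56.1% of KO cells (mice 3 and 6).

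The targeted gene followed the labels. Csf1r, the receptor on which microglia depend, had 91 UMIs in WT mouse 1 and 146 in WT mouse 4, against 1 in KO mouse 3 and 0 in KO mouse 6. A Csf1r UMI was found in 5.81% (95% Clopper-Pearson interval 4.62 to 7.20) and 10.2% (8.45 to 12.1) of WT cells. Whether these UMIs came from the oligodendrocytes or from microglial RNA in the same droplets was not tested. In KO mouse 6, 0 of 904 cells allows a share of up to 0.332% by a limit of 3 counts, and the upper Clopper-Pearson bound was 0.407%; these limits cover counting error only. The 16 microglia markers together gave 4.74 and 6.15 UMIs per 10000 in the WT libraries and 3.63 and 2.57 in the KO libraries, most of them from Cst3, which also had UMIs in 94.4 to 99.3% of the oligodendrocytes of every library. Of the 16, 4 passed the filter on low values, Cst3, C1qb and C1qa among them. All 4 had both KO libraries below both WT libraries, where 7.76% of all tested genes did. The filter used the mean of the KO and WT shares. C1qa and C1qb, with log2 differences of −8.06 and −8.15 in UMI sums (edgeR), could pass it only through WT. Their direction is therefore tied to the filter. Cells of other types were not analysed here, so a share in a cell type that should lack a gene could not be set beside the shares given here.

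The library of KO mouse 3 stood apart from the rest. In it, 46 of the tested genes lay more than 0.2 log2 units below every one of the other 7 libraries of the series, against 0 to 6 such genes in any other library. Among them were Rtn4, which encodes the neurite growth inhibitor Nogo, the lineage factor Olig2, the lysosomal membrane gene Lamp1 and Jund. Rtn4 had levels of 4.07 in WT mouse 1, 3.28 in KO mouse 3, 3.96 in WT mouse 4 and 3.97 in KO mouse 6. Olig2 had levels of 1.02, 0.62, 1.08 and 1.07 in the same order. The median difference between KO and WT over these 46 genes was −0.407 in batch 4 and −0.00692 in batch 6, and 21 of the 46 had the opposite sign in batch 6. Their part in the genotype differences is given beside each gene, and the cause was not tested.

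**Figure D1:**
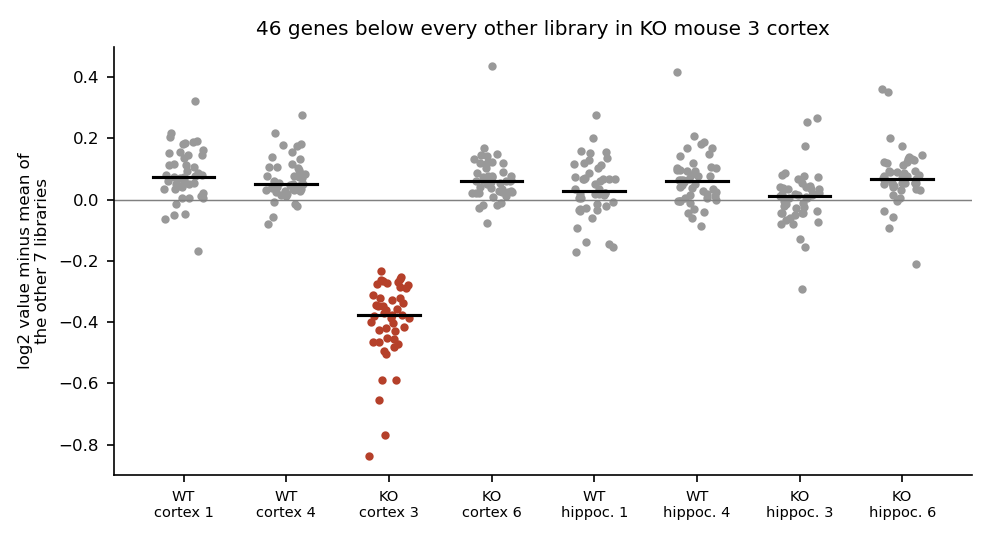
Each point is 1 of 46 genes, chosen because it lies more than 0.2 log2 units below all other libraries in KO mouse 3 cortex, and the y axis is its log2 level minus the mean of the other 7 libraries; black lines are medians. KO mouse 3 cortex (red) is low by construction, and the hippocampus library of the same mouse lies with the others.

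C4b and Serpina3n were the only genes that passed the test in the cortex, and both rose in KO mice. Of 9348 genes tested with limma on library means with batch as a term, these 2 (0.0214%) had an adjusted p under 0.05, none fell, and 725 had an unadjusted p under 0.05. C4b encodes complement component C4, which is cleaved early in the classical and lectin pathways (chr17:34728380-34743882, minus strand, GRCm38). Its level was 0.054 in WT mouse 1, 0.064 in WT mouse 4, 0.94 in KO mouse 3 and 1.11 in KO mouse 6. The KO libraries lay far above both WT libraries, with a difference of 0.96 ± 0.04 (SE) and an adjusted p of 0.0344. In normalised UMIs per cell this was 0.0661 and 0.0782 in WT against 2.70 and 2.64 in KO, a ratio of 37.0. The neighbouring gene C4a, whose sequence is close to that of C4b, had 10 and 11 UMIs in the WT libraries and 12 and 12 in the KO libraries, so few C4b reads were assigned to it; reads that match both genes equally may have been dropped by the counting.

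Serpina3n encodes a secreted serine protease inhibitor of the acute phase (chr12:104406729-104414329, plus strand, GRCm38). Its level was 0.010 in WT mouse 1, 0.013 in WT mouse 4, 0.37 in KO mouse 3 and 0.40 in KO mouse 6. The difference was 0.37 ± 0.02 (SE) with an adjusted p of 0.0344, and the groups did not overlap. A Serpina3n UMI was seen in 1.49% and 1.51% of WT cells, below the filter on low values. Serpina3n passed that filter only through KO cells (21.6% and 28.0%), so its direction is tied to the filter. The limma adjusted p was 0.0554 with no filter. With 21 UMIs in each WT library against 1421 and 1164 in the KO libraries, the ratio of normalised UMIs per cell was 67.0. The close relative Serpina3m had 0 UMIs in the WT libraries and 1 in each KO library. The 250 bases before the RefSeq start of Serpina3n (chr12:104406458-104406707, plus strand, GRCm38.p6) are shown because this was the gene with the lowest p; C4b had no entry in the RefSeq promoter table used. The window holds neither TTCNNNGAA, the palindrome bound by STAT factors, nor TGANTCA, the AP-1 palindrome, on either strand, so no letter is in capitals; 7.02% and 6.75% of all 32851 promoter windows of that length hold them.
Serpina3n: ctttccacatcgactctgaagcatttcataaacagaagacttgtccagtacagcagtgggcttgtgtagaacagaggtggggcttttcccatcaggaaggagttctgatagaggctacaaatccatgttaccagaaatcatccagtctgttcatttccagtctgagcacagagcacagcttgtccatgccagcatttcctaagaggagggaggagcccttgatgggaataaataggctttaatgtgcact

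The rise covered many cells rather than a few. A C4b UMI was seen in 5.22% (4.09 to 6.54) and 6.14% (4.81 to 7.71) of WT cells and in 38.2% (35.3 to 41.2) and 52.1% (48.8 to 55.4) of KO cells. For Serpina3n the shares were 1.49% (0.913 to 2.29) and 1.51% (0.884 to 2.41) in WT and 21.6% (19.2 to 24.2) and 28.0% (25.1 to 31.0) in KO. The KO mean exceeded the WT mean by 39.5 percentage points for C4b and by 23.3 for Serpina3n. Both KO libraries lay above both WT libraries, and the two-sided exact permutation test of the labels gave p = 0.33, the smallest it can give with 2 against 2. After every cell was thinned to 5000 UMIs, so that depth was equal, the C4b shares were 2.68% and 3.38% in WT and 30.6% and 40.4% in KO, and the Serpina3n shares 0.373% and 0.712% against 15.1% and 17.9%.

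Cells that carried a C4b UMI also carried more of them in KO mice. The median count in such cells was 1 UMI in both WT libraries, 8 in KO mouse 3 and 5 in KO mouse 6. For Serpina3n it was 1 and 1 in WT and 3 and 2 in KO. Of the KO cells with a Serpina3n UMI, 88.4% in mouse 3 and 83.0% in mouse 6 also had a C4b UMI, whereas 50% and 44.6% of the C4b cells had Serpina3n. In the WT libraries 3 of 20 and 1 of 17 Serpina3n cells had C4b.

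C4b was not confined to the cluster found in KO mice. Clusters were drawn by the authors from the same genes, so their levels are given as a description. Of the KO cells with a C4b UMI, 35.4% in mouse 3 and 20.6% in mouse 6 belonged to Oligo1. In Oligo3, which held the largest number of cells in every library, the C4b level was 0.058 and 0.060 in WT mice 1 and 4, 0.34 in KO mouse 3 and 0.67 in KO mouse 6. In Oligo2 it was 0.044 and 0.077 in WT and 0.83 and 1.03 in KO, and in Oligo4 0.040 and 0.069 in WT and 1.18 and 1.36 in KO. With Oligo1 cells left out the difference over all other cells was 0.62 for C4b and 0.18 for Serpina3n, both with an adjusted p of 0.3, and no gene passed; 591 had an unadjusted p under 0.05. In both genes both KO libraries stayed above both WT libraries in the share of cells, with 28.6% and 46.4% of KO cells outside Oligo1 carrying C4b and 12.4% and 20.97% carrying Serpina3n.

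**Figure D2:**
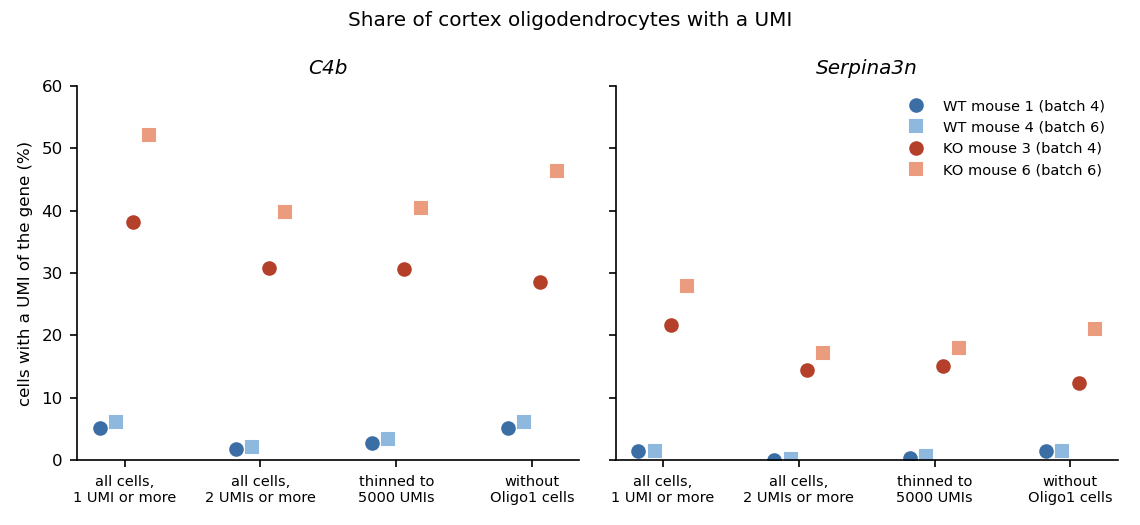
Share of cells with a UMI of C4b (left) or Serpina3n (right), in percent, for each cortex library under 4 ways of counting; circles are batch 4, squares batch 6, blue WT and red KO. Under each way both KO libraries lie above both WT libraries, and KO mouse 6 lies above KO mouse 3.

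Tests on the UMI sums of each library called more genes, most of them higher in KO mice. edgeR's quasi-likelihood test with a batch term called 7 of 9348 genes (0.0749%), 5 higher and 2 lower, and DESeq2 called 20 (0.214%), 16 higher and 4 lower. The genes that follow were chosen from these calls after their values were seen. The genes edgeR added were Cebpd, Piezo2 and Anxa2 among the higher and the microglial genes C1qa and C1qb among the lower. Cebpd, a transcription factor of the acute phase response, had levels of 0.031 and 0.030 in WT mice 1 and 4 and 0.15 and 0.17 in KO mice 3 and 6 (edgeR adjusted p = 0.0147). Anxa2, a calcium-dependent membrane-binding protein, had levels of 0.054 and 0.040 in WT and 0.15 and 0.11 in KO (edgeR adjusted p = 0.0406). Without Oligo1 cells the Anxa2 difference was 0.0095 on the log2 scale, against 0.081 with them, while Cebpd kept 0.069 of 0.13. Piezo2, a mechanically gated cation channel, had 68 and 75 UMIs in WT and 262 and 303 in KO (edgeR adjusted p = 0.0233).

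DESeq2 added 11 higher genes to those of edgeR. Masp1, the serine protease that acts with mannose-binding lectin, had levels of 0.064 and 0.10 in WT and 0.24 and 0.26 in KO (DESeq2 adjusted p = 9.14e-06). Klk6, a protease of mature oligodendrocytes, had levels of 0.17 and 0.096 in WT and 0.30 and 0.29 in KO. H2-D1, a class I antigen-presenting heavy chain, had levels of 0.053 and 0.056 in WT and 0.12 and 0.18 in KO, and its close relative H2-K1 had 26 and 28 UMIs in WT and 85 and 79 in KO; reads of the class I genes can be split between them. In each of these genes both KO libraries lay above both WT libraries. The other higher genes were Itih5, Sparc, Cela1, Cd59a, Tppp3, Lbh, Aldh1l2 and Arhgap15, with KO over WT ratios of normalised UMIs between 1.57 for Tppp3 and 4.01 for Itih5. The lower genes besides C1qa and C1qb were 9330117O12Rik, with levels of 0.32 and 0.27 in WT and 0.14 and 0.14 in KO, and Bfsp2, with levels of 0.56 and 0.22 in batch 4 against 0.029 and 0.014 in batch 6 (WT then KO). Bfsp2 therefore differed more between the batches than between the genotypes. In the main limma test none of the genes added by either tool passed (adjusted p 0.154 to 0.614). After every cell was thinned to 5000 UMIs, Cebpd, Piezo2, Masp1, Sparc, Cela1, Aldh1l2 and 9330117O12Rik passed (limma adjusted p 0.00777 to 0.0487). The other added genes did not.

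Of the other genes that the study names for the KO-linked cells, Trf and Snx10 passed the filter and not the test. Trf, the iron carrier transferrin, had levels of 5.51 and 5.78 in batch 4 and 4.92 and 5.25 in batch 6 (WT then KO), so that KO was higher within each batch while the groups overlapped across them (0.30 ± 0.06 SE, adjusted p = 0.567). Snx10, a sorting nexin of endosomes, had 65 and 66 UMIs in WT and 146 and 159 in KO (adjusted p = 0.445). Plvap, Tagln2, Flnc, Emp3 and Bcl3 were below the filter of a UMI in 5% of cells, averaged over the groups. Their UMI sums were higher in both KO libraries: 9 and 6 in WT against 107 and 51 in KO for Plvap, an endothelial diaphragm protein, and 1 and 1 against 68 and 18 for Bcl3, a partner of NF-kB. These genes were chosen by the study on these cells, so their direction is not independent evidence.

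Beyond the genes past the threshold, both KO libraries lay above both WT libraries in 1601 genes (17.1% of those tested) and below them in 725 (7.76%). In all, 61.5% of genes had a higher mean in KO, and 50.1% after thinning every cell to 5000 UMIs. At unchanged depth the share was 51.9% on log2 of the mean normalised value plus 0.1, 50.8% with edgeR on UMI sums and 49.4% with each library centred on its median gene, so the excess depended on the scale and centring as well as on thinning. The median difference over all genes was 0.00506. Batch 4 and batch 6 gave the same sign for 58.1% of genes, and the correlation of their differences across genes was 0.195; genes are not independent replicates.

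**Figure D3:**
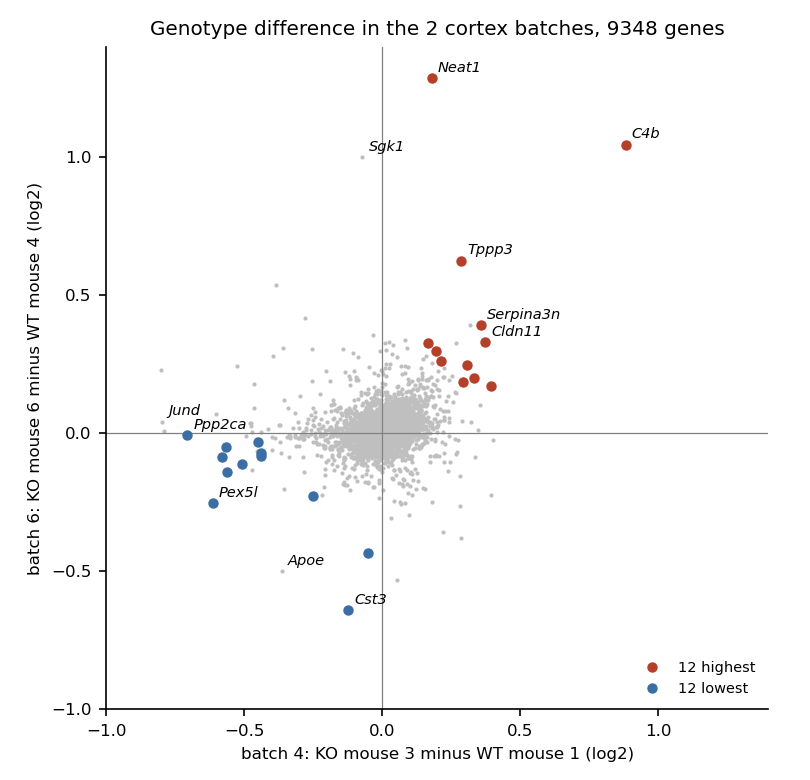
Each point is 1 of 9348 genes; the x axis is the log2 difference KO mouse 3 minus WT mouse 1 (batch 4) and the y axis KO mouse 6 minus WT mouse 4 (batch 6), with the 12 highest (red) and 12 lowest (blue) genes of the naming rule. C4b lies high on both axes, Neat1 and Sgk1 mainly on that of batch 6, and Ppp2ca and Jund low on that of batch 4 alone.

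The genes named next had the largest differences among those whose groups did not overlap. None of them passed the main limma test. Neat1, a nuclear long noncoding RNA, had levels of 1.84 and 2.02 in batch 4 and 0.90 and 2.19 in batch 6 (WT then KO), so most of its difference of 0.73 came from batch 6. Tppp3, a tubulin polymerisation promoting protein, had levels of 1.38 and 1.34 in WT and 1.67 and 1.96 in KO (0.46 ± 0.09 SE, adjusted p = 0.552). Cldn11, the claudin that seals the radial component of myelin, had levels of 4.70 and 4.79 in WT and 5.08 and 5.12 in KO (0.35 ± 0.07 SE, adjusted p = 0.543). Cldn11 differed by 0.37 in batch 4 and 0.33 in batch 6, and Tppp3 by 0.29 and 0.63.

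Fth1, the heavy chain of the iron store ferritin, had levels of 7.18 and 7.30 in WT and 7.58 and 7.47 in KO (0.28 ± 0.06 SE, adjusted p = 0.57). Plin3, a coat protein of lipid droplets, had levels of 0.62 and 0.58 in WT and 0.83 and 0.84 in KO (0.24 ± 0.03 SE, adjusted p = 0.296). Cd59a, which blocks the membrane attack complex of complement, had levels of 0.50 and 0.43 in WT and 0.83 and 0.63 in KO (0.27 ± 0.04 SE, adjusted p = 0.393). These genes held their difference outside Oligo1, at 0.29 for Fth1, 0.30 for Plin3 and 0.22 for Cd59a. After every cell was thinned to 5000 UMIs, the limma adjusted p was 0.0352 for Fth1, 0.0545 for Plin3 and 0.103 for Cd59a. Sez6l2, Slco3a1, Htra1 and Selenop completed the 12, with differences of 0.28, 0.25, 0.25 and 0.24.

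Of the 12 lowest genes, 8 belonged to the 46 genes that lay below every other library in KO mouse 3: Ppp2ca, Tle5, Pura, Timp2, Zfp91, Ube2m, Smarca5 and Smap1. Ppp2ca, the catalytic subunit of protein phosphatase 2A, had levels of 1.82 and 1.81 in WT, 1.12 in KO mouse 3 and 1.81 in KO mouse 6. Timp2, an inhibitor of matrix metalloproteinases, had levels of 1.37 and 0.87 in batch 4 and 1.24 and 1.13 in batch 6 (WT then KO). Tle5, a transcriptional corepressor, had levels of 2.07 and 1.51 in batch 4 and 1.99 and 1.85 in batch 6. In all 8 the batch 4 difference exceeded that of batch 6.

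The remaining low genes were not among the 46. All 12 were lower in both batches, because the rule took genes whose groups did not overlap. Pex5l, a regulator of HCN channel trafficking, had levels of 2.82 and 2.20 in batch 4 and 2.24 and 1.98 in batch 6 (WT then KO; −0.43 ± 0.10 SE, adjusted p = 0.614). Clmn, which encodes the actin-binding protein calmin, had levels of 1.97 and 1.72 in batch 4 and 2.10 and 1.88 in batch 6 (−0.24 ± 0.05 SE, adjusted p = 0.6). Cst3, the protease inhibitor cystatin C, had levels of 1.86 and 1.74 in batch 4 and 2.03 and 1.39 in batch 6 (−0.38 ± 0.13 SE, adjusted p = 0.614). Cst3 is abundant in microglia, and the microglial genes C1qa and C1qb were lower in the same libraries; the part of microglial RNA in the Cst3 difference was not tested. Malat1, a nuclear long noncoding RNA, had levels of 8.82 and 8.77 in batch 4 and 9.17 and 8.74 in batch 6.

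**Figure D4:**
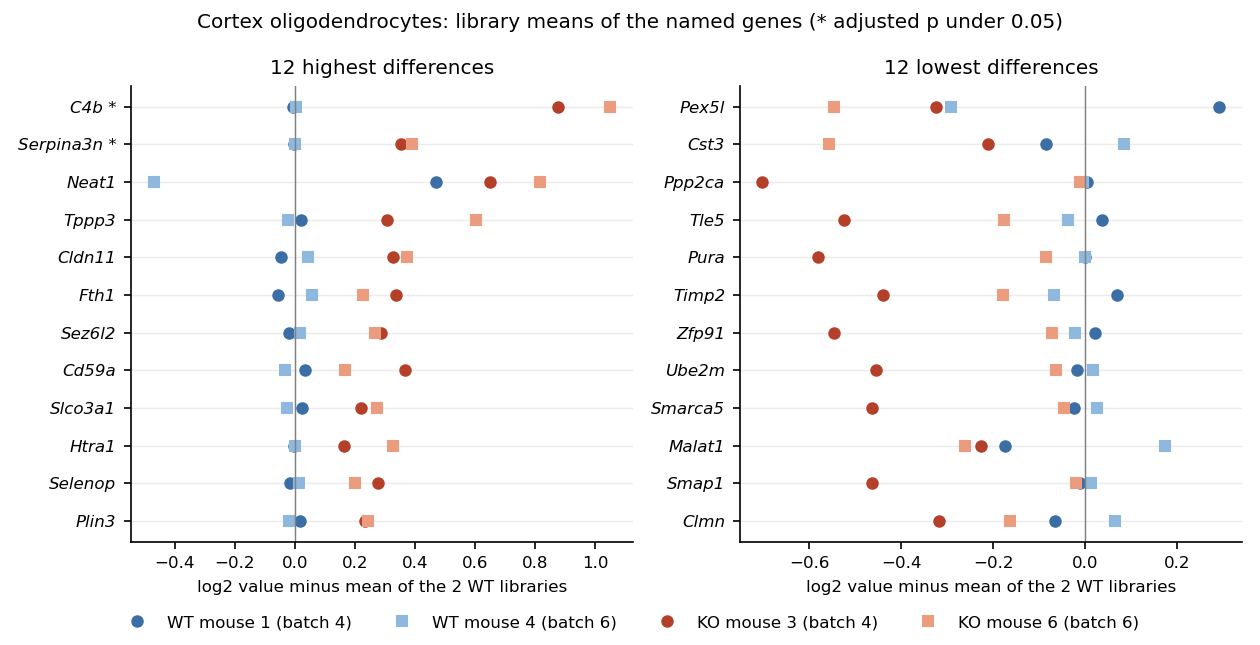
Log2 level of each cortex library minus the mean of the 2 WT libraries, for the 12 highest (left) and 12 lowest (right) genes of the naming rule; circles are batch 4, squares batch 6, blue WT, red KO, and an asterisk marks an adjusted p under 0.05. C4b and Serpina3n are the 2 starred genes, and Ppp2ca, Pura, Zfp91, Ube2m, Smarca5 and Smap1 are low in KO mouse 3 with KO mouse 6 near the WT libraries.

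Gene lists were read against the background of all tested genes, of which 17.1% lay above and 7.76% below without overlap and which had a median difference of 0.00506. Of all tested genes 61.5% had a higher mean in KO, and 50.1% after thinning. C4b and Serpina3n were the only list members past the limma test. Of 13 complement genes and regulators, 10 were in the matrix and 3 were tested: C4b, Cd59a and Clu, the last with a difference of 0.0044. The other 7 were below the filter, so complement genes downstream of C4b could not be compared at this depth. C3, which acts downstream of C4 in the cascade, had 0 UMIs in both WT libraries and 1 and 2 in the KO libraries.

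Of 18 genes of the STAT3 and acute phase response, 7 were tested, all 7 had a higher mean in KO and 3 lay above without overlap. Stat3 itself, the transcription factor activated through gp130 receptors, had levels of 0.38 and 0.43 in WT and 0.53 and 0.60 in KO (0.16 ± 0.02 SE, adjusted p = 0.363). Cebpd and Serpina3n were the other 2. Both had WT shares under the filter of 5% (4.02% and 3.74% for Cebpd) and entered through KO, so their direction is tied to the filter. The receptor chains Il6st and Lifr and the kinase Jak1 differed by 0.015 to 0.027. The list had a median of 0.0576, and of 0.0126 after thinning. Socs3, the feedback inhibitor of this pathway, was below the filter, with 2 and 5 UMIs in the WT libraries and 173 and 54 in the KO libraries.

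All 6 tested genes of 20 in the interferon and class I list had a higher mean in KO, and 4 lay above without overlap. Ifi27, an interferon-induced mitochondrial protein, had levels of 0.60 and 0.66 in WT and 0.75 and 0.79 in KO (0.14 ± 0.03 SE, adjusted p = 0.54). H2-D1 was described above. Stat2, Tapbp and B2m differed by 0.015 to 0.027, and Irf7, Isg15 and Ifit1, classical targets of type I interferon, were below the filter. Ifi27, H2-D1 and Tapbp were among the 4 whose groups did not overlap.

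Genes of cholesterol synthesis had higher means in KO almost throughout. Of 21 genes, 20 were tested, 18 had a higher mean, 13 lay above without overlap and none below, with a median of 0.0567. After thinning 17 of the 20 were higher, with a median of 0.0407, and without Oligo1 cells 19 were higher. In 16 genes KO was higher in both batches, compared with 38.9% of all genes tested. None passed the test (9 had an unadjusted p under 0.05). Idi1, the isopentenyl diphosphate isomerase, had levels of 0.80 and 0.86 in WT and 0.98 and 1.06 in KO (0.19 ± 0.03 SE, adjusted p = 0.445). Fdps, which makes farnesyl diphosphate, had levels of 1.08 and 1.20 in WT and 1.26 and 1.38 in KO (0.18 ± 0.04 SE, adjusted p = 0.545). Hmgcs1, the synthase at the head of the pathway, had levels of 1.64 and 1.78 in batch 4 and 1.80 and 1.97 in batch 6 (WT then KO). Each of these was higher in KO by a similar amount in both batches.

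The 250 bases before the starts of Hmgcs1 (chr13:119690101-119690350, plus strand) and Idi1 (chr13:8885356-8885605, plus strand; RefSeq, GRCm38.p6) are shown because these genes were among the highest of the list and share a motif. Capitals mark matches on either strand to CCAAT, the box bound by NF-Y, and to TCACNCCAC, a form of the sterol regulatory element bound by SREBP. Hmgcs1 holds 3 CCAAT matches and 1 sterol regulatory element, and Idi1 holds 2 CCAAT matches and no sterol regulatory element in these letters.
Hmgcs1: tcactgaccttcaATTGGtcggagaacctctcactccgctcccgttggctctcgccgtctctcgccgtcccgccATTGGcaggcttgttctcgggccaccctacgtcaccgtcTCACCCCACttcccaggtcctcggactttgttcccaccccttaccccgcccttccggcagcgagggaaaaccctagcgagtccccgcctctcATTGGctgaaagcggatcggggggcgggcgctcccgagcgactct
Idi1: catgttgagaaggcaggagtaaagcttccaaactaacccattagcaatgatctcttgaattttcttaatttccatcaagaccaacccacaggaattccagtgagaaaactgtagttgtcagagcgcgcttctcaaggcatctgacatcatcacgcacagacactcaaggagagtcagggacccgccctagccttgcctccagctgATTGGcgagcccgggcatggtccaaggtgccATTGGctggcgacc
Of the 21 genes 16 had entries in the table, and a CCAAT match was found for 15 of these 16, in 15 of their 19 windows, against 33.85% of all windows. The sterol regulatory element in these letters was found for Hmgcs1 alone, and in 1.05% of all windows.

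Of 8 tested genes that control this pathway or take up lipoproteins all had a higher mean, 6 after thinning, and 4 were higher in both batches. Of these 8, 2 lay above without overlap, and the median was 0.0223. Srebf2, which encodes SREBP2, differed by 0.037, and the sensor Insig1 by 0.0065.

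Among the 13 tested genes of cholesterol export and transport, 2 apolipoproteins differed in opposite directions. Apoe had levels of 3.41 and 3.04 in batch 4 and 2.86 and 2.36 in batch 6 (−0.43 ± 0.08 SE, adjusted p = 0.534). Apod had levels of 4.52 and 4.84 in batch 4 and 3.99 and 4.38 in batch 6 (0.36 ± 0.07 SE, adjusted p = 0.57). In both genes the batches differed by more than the genotypes did, so that the groups overlapped although KO moved the same way within each batch. Abca2, a lipid transporter of oligodendrocyte lysosomes, had levels of 2.38 and 2.53 in WT and 2.54 and 2.69 in KO, whereas Abca1 differed by −0.00076. Apoe is also made by astrocytes and microglia, and the 8 astrocyte markers summed to 2.04 and 2.40 in WT and 2.09 and 2.09 in KO in log2 units. Apoe was highest in Oligo3, the cluster with a smaller share of KO cells, where its level was 3.99 and 3.85 in batch 4 and 3.29 and 2.92 in batch 6 (WT then KO). The part of the cluster shares in the Apoe difference was not tested.

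Of 19 genes of fatty acid and galactolipid synthesis, 14 had a higher mean and 6 lay above without overlap, with a median of 0.0619 that was 0.0161 after thinning. Cers2, the ceramide synthase for very long chains, had levels of 2.32 and 2.35 in WT and 2.52 and 2.50 in KO (0.18 ± 0.06 SE, adjusted p = 0.614). Fa2h, which hydroxylates myelin fatty acids, had levels of 2.41 and 2.63 in batch 4 and 2.69 and 2.77 in batch 6. The desaturases Scd2 and Fads2 differed by −0.063 and −0.00034. The elongases Elovl7, Elovl1 and Elovl5 differed by 0.14, 0.10 and 0.089.

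Iron genes other than Trf and Fth1 differed little. Of 8 tested genes, 6 had a higher mean and 2 lay above without overlap, with a median of 0.0241. The ferritin light chain Ftl1 had levels of 2.93 and 2.97 in batch 4 and 2.66 and 2.69 in batch 6, and the transferrin receptor Tfrc differed by 0.021.

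Of 11 tested actin cytoskeleton genes 9 had a higher mean, 7 after thinning, 6 lay above and 1 below without overlap, and none passed the test. The thymosins, which bind actin monomers, led the list. Tmsb4x had levels of 5.15 and 5.14 in WT and 5.37 and 5.34 in KO, and Tmsb10 had levels of 0.43 and 0.45 in WT and 0.57 and 0.72 in KO. Of 9 tested annexins and S100 genes 7 had a higher mean, also after thinning, and 3, Anxa2, Anxa4 and S100b, lay above without overlap. Without Oligo1 cells the medians were 0.0414 for the actin list and 0.0285 for the annexin list, from 0.0516 and 0.0556.

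Of 18 lysosome genes 15 had a higher mean, 6 lay above and 2 below without overlap, with a median of 0.0449 that was 0.0123 after thinning. Lgmn, the asparaginyl endopeptidase legumain, had levels of 1.13 and 1.14 in WT and 1.21 and 1.36 in KO. Lamp1, at 3.58 and 2.97 in batch 4 and 3.40 and 3.47 in batch 6, was one of the genes low in KO mouse 3 alone.

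Of 18 myelin and oligodendrocyte identity genes 14 had a higher mean, 12 were higher in both batches and 5 lay above without overlap, with a median of 0.075 and none past the test. Mbp had levels of 5.38 and 5.51 in batch 4 and 5.30 and 5.30 in batch 6 (WT then KO), and Mag 4.72 and 4.71 in batch 4 and 4.41 and 4.48 in batch 6. Mog had levels of 3.92 and 3.88 in WT and 4.03 and 3.99 in KO. None of these 3 passed (limma adjusted p 0.652 to 0.904). Without KO mouse 3 the sign of the Mbp and Mag differences turned. That fit had no batch term, so it set KO mouse 6 against the WT mice of both batches. Of 14 lineage transcription factors 8 had a higher mean; Nkx6-2 had levels of 2.35 and 2.23 in WT and 2.50 and 2.44 in KO, and Olig2 was low in KO mouse 3 alone. Of the 8 tested genes of newly formed oligodendrocytes, Enpp6 lay above without overlap, with levels of 0.79 and 0.66 in WT and 1.03 and 0.86 in KO (0.22 ± 0.03 SE, adjusted p = 0.363), and the median was 0.00423. Of the 15 tested genes of mature subtypes 10 had a higher mean, with Klk6 and Hapln2 among the 4 above without overlap and Opalin at −0.050.

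At the contact with axons the list was split, with 7 of 14 genes higher and a median of 0.00256. Jam3, a junctional adhesion molecule, had levels of 1.89 and 1.90 in WT and 2.12 and 2.01 in KO. Ank3, the ankyrin of nodes and paranodes, had levels of 2.40 and 2.18 in batch 4 and 2.76 and 2.53 in batch 6, and was lower in KO within each batch. Of the ligands that oligodendrocytes present to microglia, Csf1, the ligand of the missing receptor signal, had levels of 0.45 and 0.45 in WT and 0.55 and 0.64 in KO (0.15 ± 0.03 SE, adjusted p = 0.545). Mif, a cytokine, had levels of 1.96 and 1.78 in WT and 1.68 and 1.64 in KO. These 2 were the only tested ligands of 5 whose groups did not overlap.

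Tgfb1 and Tgfbr2 were below the filter, and of 9 tested TGF-beta pathway genes 4 had a higher mean, 1 lay above and 2 below without overlap. Smad7, the inhibitory SMAD, had levels of 2.24 and 2.22 in WT and 2.02 and 2.14 in KO (−0.15 ± 0.06 SE, adjusted p = 0.614). The receptor Tgfbr1 differed by −0.019. Of 12 tested glycolysis genes 10 had a higher mean and 4 lay above without overlap, with a median of 0.0332 that was 0.00266 after thinning; Gapdh had levels of 2.56 and 2.40 in WT and 2.71 and 2.62 in KO.

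Of 13 genes induced by glucocorticoids, 12 had a higher mean and 5 were higher in both batches, where 38.9% of all genes tested were. Sgk1, a kinase induced by these hormones, had levels of 0.48 and 0.41 in batch 4 and 0.64 and 1.64 in batch 6 (WT then KO), and Klf9 1.05 and 0.66 in batch 4 and 1.18 and 1.46 in batch 6. Of 12 tested genes of the unfolded protein response 11 had a higher mean, 6 were higher in both batches and 2, Atf5 and Herpud1, lay above without overlap. Hsp90b1, a chaperone of the endoplasmic reticulum, had levels of 2.13 and 2.41 in batch 4 and 2.10 and 1.94 in batch 6. Of 10 tested heat shock genes 9 had a higher mean and 4 were higher in both batches, and Hsp90aa1 had levels of 4.08 and 4.43 in batch 4 and 4.01 and 4.02 in batch 6. Of 6 tested immediate early genes 3 had a higher mean, and Jund, at 2.70 and 1.90 in batch 4 and 2.44 and 2.49 in batch 6, was low in KO mouse 3 alone.

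Besides those of microglia, markers of other cells were tested in small numbers. Of 8 astrocyte markers 3 had a higher mean, 1 lay above and 3 below without overlap, with Gfap at 0.045 and 0.036 in WT and 0.086 and 0.099 in KO and the glutamate transporter Slc1a2 at 0.63 and 0.70 in WT and 0.53 and 0.57 in KO. Of 7 neuron markers 2, of 6 progenitor markers 1 and of 7 endothelial and mural markers 1 passed the filter, with differences between −0.0064 and 0.022. All 3 tested erythrocyte genes had a higher mean and 2 lay above without overlap; the haemoglobin gene Hbb-bs had levels of 0.18 and 0.17 in batch 4 and 0.097 and 0.39 in batch 6 (WT then KO).

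**Figure D5:**
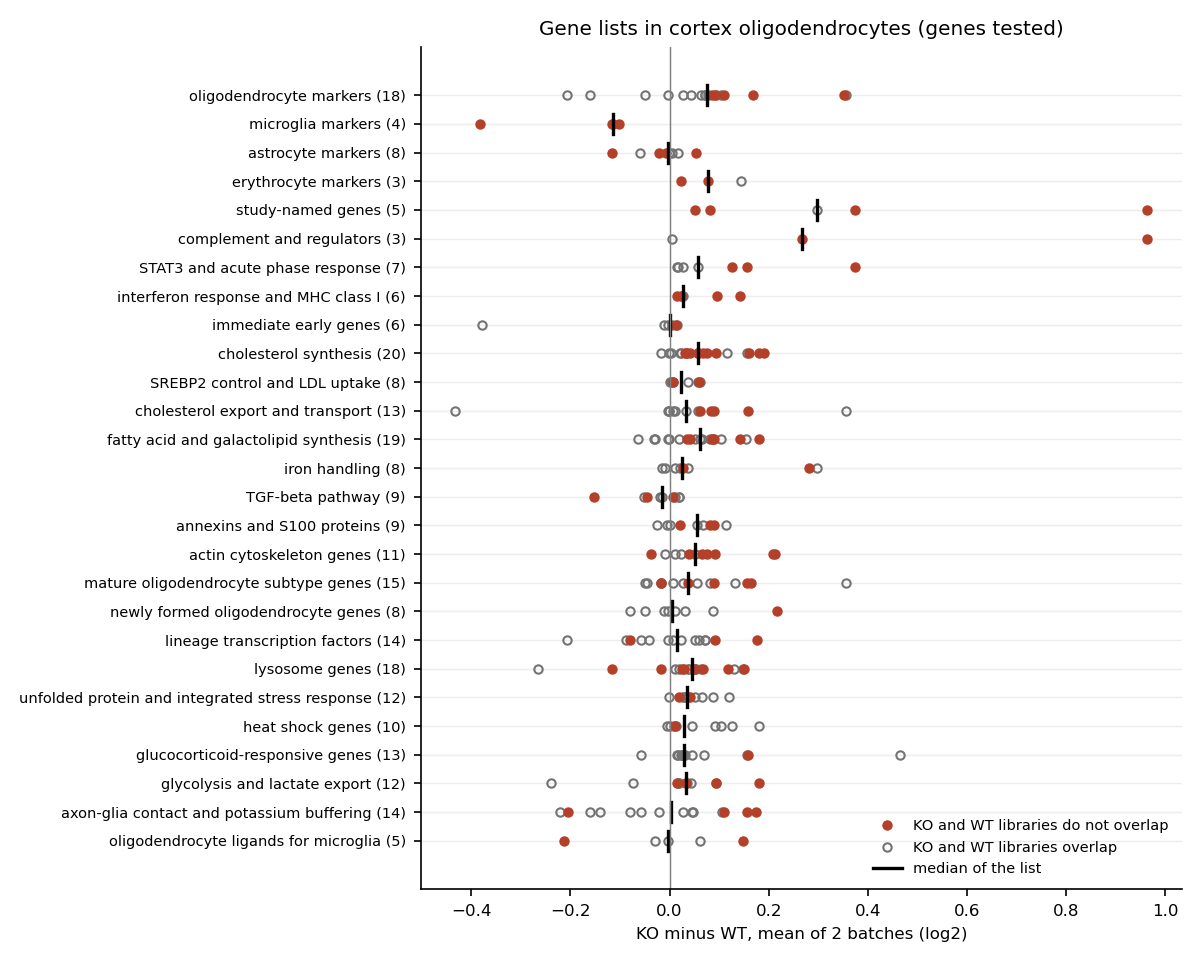
Each point is a tested gene of a list, with the number tested in brackets; the x axis is the KO minus WT difference in log2 units, filled red points are genes whose KO and WT libraries do not overlap, and black bars are list medians. The microglia markers that passed the filter lie below 0, the cholesterol synthesis genes mostly above 0 with a median of 0.0567, and C4b at 0.96 lies farthest from the rest.

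The cortex difference was set against that of the hippocampus of the same mice, with the mouse as the block: each mouse's cortex minus hippocampus level was compared between genotypes. No gene of 9257 passed this test with limma (lowest adjusted p = 0.543, 787 with an unadjusted p under 0.05). C4b differed between KO and WT by 0.88 and 1.05 in cortex and by 1.69 and 1.25 in hippocampus (older then younger pair), a smaller difference in cortex by 0.81 and 0.21. Serpina3n differed by 0.36 and 0.39 in cortex and by 0.80 and 0.62 in hippocampus, smaller in cortex by 0.45 and 0.23. Their size in cortex was below that in hippocampus in both pairs of mice, but neither passed the test. Oligo1 held 30.9% and 23.2% of KO hippocampus cells (mice 3 and 6), against 13.7% and 10.8% of KO cortex cells. The hippocampus libraries were batches 3 and 5. The part of cluster shares or batch in these differences was not tested. For these 2 genes the test itself was uninformative, because the variance trend ran along the mean tissue difference and gave standard errors of 61.1 for C4b and 1.12 for Serpina3n; with no trend the unadjusted p was 0.0538 and 0.0103 (adjusted p 0.586 and 0.459). With a trend along the mean level of a gene, which had 240 prior degrees of freedom, both passed (limma adjusted p = 2.08e-23 for C4b and 9.51e-25 for Serpina3n). Both of these settings were chosen after seeing the data, and whether the tissues differ in these genes therefore depended on the variance model.

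The 5 genes with the lowest p in this comparison were Serpinb1a, Mog, Mettl7a1, Edil3 and Stmn4. In each the KO minus WT difference was higher in cortex than in hippocampus in both pairs. Mog differed by 0.11 and 0.11 in cortex and by −0.094 and −0.073 in hippocampus (limma adjusted p = 0.543). Serpinb1a, an intracellular inhibitor of neutrophil proteases, differed by −0.069 and −0.086 in cortex and by −0.38 and −0.36 in hippocampus (limma adjusted p = 0.543). The same-animal libraries deviated together across genes, with correlations of 0.843 in WT and 0.853 in KO mice. Cortex libraries of different animals in 1 batch had a correlation of 0.656. Within a genotype the animal and the age pair cannot be told apart.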

How the data were processed

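Brain tissue was dissociated with actinomycin D, and cells were sorted by scatter and viability before droplet sequencing; the authors aligned and counted UMIs with Cell Ranger 5.0.0 on mm10 and kept mature oligodendrocytes. The authors deposited log2 values, log2(UMIs over a scran size factor, plus 1), and a cell table with the UMI count of each cell and its mitochondrial percent. UMIs were recovered from the deposited log2 values: 100% came out whole within 0.001. No doublet caller was run; the authors had filtered cells before deposit. Columns of per-sample values not used: 0.

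Genes detected in 5% of cells or more, as the mean of the KO and WT shares, were averaged over the cells of each library, and the means were fitted in limma 3.58.1 (R 4.3.3) with batch and genotype, with a variance trend and Benjamini-Hochberg adjustment at 0.05. The fit had 1 residual degree of freedom and 3.61 prior ones. edgeR 4.0.16 and DESeq2 1.42.0 were run on UMI sums. These tools and limma were tested on simulated UMI sums of the cortex comparison, with limma on log2 of the sums and not on means over cells. The tissue comparison and the other alternatives were not simulated. The tissue comparison kept the mouse as a block, since both libraries of a mouse come from 1 animal. Their deviations correlated over genes (0.843 in WT and 0.853 in KO). Those of different animals within a cortex batch did so too (0.656). With no replicate block the tissue comparison also called 0 genes.

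Named genes were those past the threshold, filled up to 12 in each direction by the size of the difference among genes whose groups did not overlap, the 5 lowest p of the tissue comparison, genes the study names and, for each list, its extremes; some of these are not reported here. Members and lists were chosen with earlier results of these data known. Positions are from GENCODE M21 and promoter sequences from RefSeq. Alternatives covered the pseudocount, filter, trend, centring, depth, clusters, batch term and each library left out.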

Additional observations from a re-analysis of the deposited data

How the results depend on the processing

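With 2 mice a group and 1 residual degree of freedom, whether a difference passed depended on its modelled variance as well as its size. Cldn11 and Serpina3n differed by 0.35 and 0.37, with limma adjusted p values of 0.543 and 0.0344. With no variance trend both had a limma adjusted p of 0.463. The number of genes called was 4 with a pseudocount of 1 on mean normalised values, 7 with edgeR, 20 with DESeq2 and 10 with cells thinned to 5000 UMIs. It was 0 with no filter on low values (1427 with an unadjusted limma p under 0.05), with no variance trend (873), without Oligo1 cells (591) and in Oligo3 cells alone (460). In these 4 settings C4b differed by 0.96, 0.96, 0.62 and 0.45 (limma adjusted p 0.0554, 0.463, 0.300 and 0.705) and Serpina3n by 0.37, 0.37, 0.18 and 0.076 (the same adjusted p values). In the last 2 fewer cells entered and the differences were smaller, and the cause of none of these changes was tested. Leaving out 1 library, which also dropped the batch term and assumed that the lone library of a group varies like the others, gave 43 to 125 calls: 43 without WT mouse 1, 48 without WT mouse 4, 51 without KO mouse 3 and 125 without KO mouse 6 (42 higher and 83 lower).

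Of 474 values of 28 named genes under these alternatives, 443 kept direction and side of the threshold, 26 passed it and 5 turned direction. Mag was at −0.0052 without Oligo1 cells, −0.020 in Oligo3 cells, −0.13 without WT mouse 4 and −0.089 without KO mouse 3, and Mbp was at −0.043 without KO mouse 3 (up to 0.17 with another library left out). The 28 genes did not include C4b and Serpina3n, the only genes past the main limma test of the cortex. Both lost their call in the settings of the cortex comparison above that called 0 genes. The comparison with the hippocampus called 0 genes in 10 alternatives, among them each mouse left out, no variance trend and no replicate block (55 with an unadjusted p under 0.05), and 161 with a variance trend along the mean level, of which Serpina3n and C4b had the lowest p. Both settings of the trend were chosen after seeing the data.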
